A study of Homo sapiens with 6 samples.

Results

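Metallothioneins are small, cysteine-rich proteins that bind zinc and copper and buffer the free metal in the cell. Their genes, and that of the zinc exporter SLC30A1 (ZnT1), are switched on when zinc binds the transcription factor MTF1, which recognises short metal response elements in promoters. In liver cancer, metallothioneins and MT1G in particular have been linked to sorafenib resistance. The genes described here were the metallothioneins MT1E, MT1F, MT1G, MT1M, MT1X and MT2A together with MTF1 and SLC30A1. They were chosen by name, as members of this pathway, with earlier results of these data known. All 8 were among the 38637 genes of the expression table.

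The cells were HCCLM3-SR, a sorafenib-resistant derivative of the human hepatocellular carcinoma line HCCLM3, so every value comes from 1 resistant line and has no parental or untreated counterpart here. All 6 libraries were made from cells kept in 5 µM sorafenib. The 3 knockdown libraries received si-cDCBLD2, an siRNA against a circular RNA made from the DCBLD2 gene, and the 3 control libraries received siCTRL, each for 3 days. The comparison asked which messages change when this circular RNA is lowered under the drug. Nothing in the labels says that the libraries came from separate cultures, so the p-values measure the spread between these libraries, which may be technical.

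Expression is given in TPM, a length-scaled share of all transcripts that sums to 1000000 in each library, so levels can be compared between genes. Recovered read totals were 17492330 to 23063898 per library. For the host gene DCBLD2 the 3 knockdown libraries gave 58.1, 25.9 and 31.6 TPM and the controls 71.5, 48.5 and 50.7 TPM, and these values do not separate the circular from the linear RNA. The log2 fold change of DCBLD2 was -0.61 (SE 0.31), with a limma adjusted p of 0.253 without and 0.0139 with the replicate number as a block. Of 9 hepatocyte and liver cancer markers, 3 were at 1 TPM or more in every library, namely the keratins KRT8 and KRT18 and the hepatocyte factor HNF4A, while ALB, the albumin gene, was at 0.189 to 1.58 TPM. The summed level of these markers was 5837 to 7007 TPM in the knockdown and 4828 to 5648 TPM in the control libraries, without overlap. Nearly all of this sum was keratin. KRT8 was at 3644 to 4413 TPM against 2999 to 3408 TPM, and KRT18 at 2161 to 2555 TPM against 1800 to 2209 TPM. KRT18, ALB, AFP, APOA1 and EPCAM overlapped between the groups, so the sum does not describe the markers as a set. HNF4A was at 27.0 to 31.3 TPM against 22.9 to 23.7 TPM and TTR, the transthyretin gene, at 1.30 to 1.64 TPM against 0.202 to 0.241 TPM, whereas APOB, the apolipoprotein B gene, was at 0.902 to 2.71 TPM against 2.72 to 4.26 TPM. The summed fibroblast markers were at 3.70 to 14.2 TPM in the knockdown and at 1.33 to 3.47 TPM in the control libraries, with COL1A2 above 0 in knockdown replicate 1 only, at 2.67 TPM. The summed leukocyte markers were at 0.812 to 0.938 TPM in the knockdown and at 0.981 to 1.49 TPM in the control libraries, without overlap. Of these markers, PTPRC overlapped between the groups. The summed endothelial markers were at 4.5 to 5.2 TPM in the knockdown and at 3.7 to 5.7 TPM in the control libraries. The part of these markers in the results below was not tested.

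MT2A and MT1X were the metallothioneins that these cells expressed. Their genes lie at opposite ends of the members' cluster on chromosome 16 (GRCh38, GENCODE 29 annotation), with MT2A at chr16:56608199-56609497 and MT1X at chr16:56682424-56684196, both on the plus strand, over a span of 76.0 kb. Between them lie MT1E (chr16:56625475-56627112, plus), MT1M (chr16:56632233-56633986, plus), MT1F (chr16:56657694-56660698, plus) and MT1G (chr16:56666731-56668065, minus). MTF1 is at chr1:37809567-37859620 and SLC30A1 at chr1:211571568-211578742, both on the minus strand.

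The promoters of the expressed MTF1 targets hold letters of the kind that MTF1 recognises. The 250 bases before the transcription start are printed 5′ to 3′ on the gene's own strand from RefSeq (GRCh38.p14), with matches to the core of the metal response element in capitals. The core was searched on both strands as TGCACNC and TGCGCNC. The windows are chr16:56608334-56608583 (plus) for MT2A, chr16:56682220-56682469 (plus) for MT1X and chr1:211579162-211579411 (minus) for SLC30A1.
MT2A: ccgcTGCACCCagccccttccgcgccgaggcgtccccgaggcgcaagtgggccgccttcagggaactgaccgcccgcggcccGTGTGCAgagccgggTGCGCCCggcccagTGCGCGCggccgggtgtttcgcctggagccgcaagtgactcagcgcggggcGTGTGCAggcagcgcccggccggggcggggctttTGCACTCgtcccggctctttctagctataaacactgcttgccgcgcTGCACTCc
MT1X: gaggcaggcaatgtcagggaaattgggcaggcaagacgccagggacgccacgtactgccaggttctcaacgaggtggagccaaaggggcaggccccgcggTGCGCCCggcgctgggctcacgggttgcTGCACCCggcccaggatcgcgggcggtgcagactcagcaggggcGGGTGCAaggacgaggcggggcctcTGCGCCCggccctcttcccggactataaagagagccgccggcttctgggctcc
SLC30A1: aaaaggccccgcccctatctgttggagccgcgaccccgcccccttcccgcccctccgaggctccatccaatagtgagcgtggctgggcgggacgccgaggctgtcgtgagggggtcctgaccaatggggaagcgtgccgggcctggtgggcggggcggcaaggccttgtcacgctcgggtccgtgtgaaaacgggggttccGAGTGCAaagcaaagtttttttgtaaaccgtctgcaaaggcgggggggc
The MT2A window held 7 matches, the MT1X window 4 and the SLC30A1 window 1, while the MTF1 window (chr1:37859593-37859842, minus) held 0. Of 35116 promoter windows of the same length, 0.0313% held as many as MT2A, 0.37% as many as MT1X and 24.8% at least 1. RefSeq and GENCODE place some starts differently, so the MT2A window lies inside the GENCODE gene. The MT1X and MTF1 windows run into their GENCODE genes, and the SLC30A1 window lies wholly upstream of its GENCODE start at chr1:211578742. A match describes these letters and does not show that MTF1 was bound there. MT1E, MT1F, MT1G and MT1M had no entry in the promoter table.

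MT2A, the main stress- and metal-inducible metallothionein of human cells, was the most abundant of the 8 genes in every library. It was at 93.5, 136 and 142 TPM in the knockdown libraries and at 120, 115 and 118 TPM in the controls. Its mean over the 6 libraries exceeded that of 96.5% of all genes in the table. Knockdown replicate 1 lay below every control and the other 2 knockdown libraries lay above every control, so the groups overlapped.

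The means of MT2A were 124 ± 26.6 TPM (SD, n = 3) in the knockdown and 118 ± 2.30 TPM (SD, n = 3) in the control libraries. The log2 fold change was 0.05 (SE 0.16), on the log2(TPM + 1) scale used for all fits, with a limma adjusted p of 0.862. An exact permutation test of the TPM values, two-sided, gave p = 0.8 where 3 against 3 libraries cannot go below 0.1. Within the same-numbered pairs the log2 ratios of knockdown to control were -0.36, 0.24 and 0.27, so pair 1 ran against the other 2. Without knockdown replicate 1 the log2 fold change was 0.24 with a limma adjusted p of 0.0368. With each library's trend with GC content removed it was -0.17, where the median over all genes tested was -0.12. Neither the call nor the sign held across settings.

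MT1X, a metallothionein isoform of the same cluster, was at 18.6, 31.3 and 26.0 TPM in the knockdown libraries and at 15.0, 13.9 and 18.9 TPM in the controls. It was higher in the knockdown library of all 3 pairs, by log2 ratios of 0.30, 1.17 and 0.46. The groups met at 1 point, since knockdown replicate 1 lay just below control replicate 3. Bulk RNA values cannot separate more RNA per cell from more cells that express the gene.

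The means of MT1X were 25.3 ± 6.38 TPM (SD, n = 3) in the knockdown and 15.9 ± 2.60 TPM (SD, n = 3) in the control libraries, a ratio of 1.59. The log2 fold change was 0.62 (SE 0.20) with a limma adjusted p of 0.130. With the replicate number as a block the SE was 0.16 and the limma adjusted p was 0.0368. The exact permutation test, two-sided and ignoring the pairs, gave p = 0.2. With the trend with transcript length also removed, the blocked fit gave 0.54 with a limma adjusted p of 0.0524, so the call was lost. Without knockdown replicate 1 the unblocked log2 fold change was 0.81 with a limma adjusted p of 0.0201, and leaving out any other single library gave limma adjusted p of 0.236 to 0.343, with the lowest log2 fold change, 0.45, without knockdown replicate 2.

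MT1X rested on few reads. The recovered counts were 52, 119 and 92 reads in the knockdown and 41, 45 and 61 reads in the control libraries. Exact Poisson 95% intervals, which cover counting error only, were 13.9 to 24.3, 25.9 to 37.4 and 21.0 to 31.9 TPM in the knockdown libraries. In the controls they were 10.8 to 20.4, 10.1 to 18.6 and 14.4 to 24.2 TPM. The intervals of knockdown replicates 2 and 3 lay above those of control replicates 1 and 2, while that of knockdown replicate 1 overlapped all 3 control intervals.

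**Figure D1:**
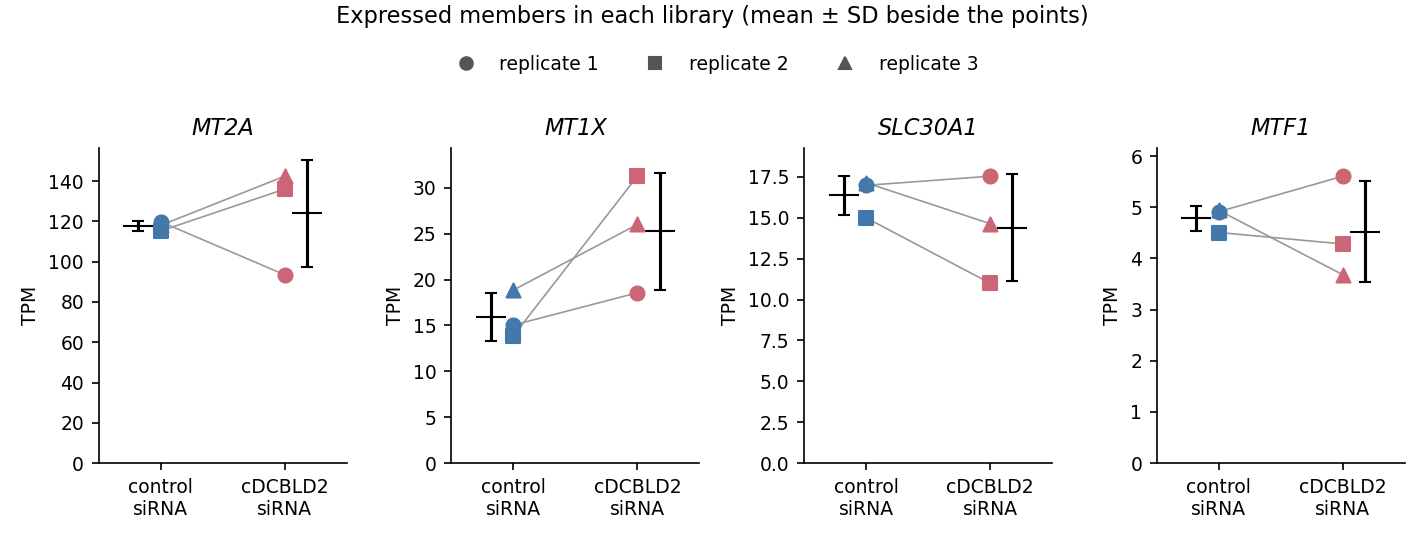
TPM (y axis, from 0, each panel on its own scale) of MT2A, MT1X, SLC30A1 and MTF1 in the 3 knockdown and 3 control libraries, with points for libraries, lines joining equal replicate numbers and bars for group means ± SD. For MT1X 2 of the 3 knockdown libraries lie above every control, and in every panel the groups overlap.

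Of the 4 members tested, 0 passed an adjusted p of 0.05 in limma without the block, against 0.88% of the 13980 genes tested, in either direction. With the block, MT1X was called higher, against 9.94% of all genes tested, and 0 members were called lower, against 25%. Groups without overlap were seen in 0 of these 4 members, against 9.58% of genes tested with all knockdown libraries higher and 22.3% with all lower.

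The ratio of the 2 expressed metallothioneins was higher in each knockdown library than in any control. The TPM of MT1X divided by that of MT2A was 0.199, 0.230 and 0.183 in the knockdown libraries and 0.126, 0.120 and 0.160 in the controls, so the groups did not overlap. The mean ratio was 0.204 ± 0.0240 (SD, n = 3) against 0.135 ± 0.0214 (SD, n = 3), a 1.51-fold difference. The ratio was chosen after its values were seen and is given without a test. Counting error was not carried into it. The nearest libraries of the 2 groups, knockdown replicate 3 and control replicate 3, had 92 and 61 reads of MT1X. Their MT1X counting intervals, 21.0 to 31.9 and 14.4 to 24.2 TPM, overlapped. Among single genes tested, 9.58% had all knockdown libraries above all controls. In knockdown replicate 1 MT1X lay within the range of the controls while MT2A lay below theirs, and in replicates 2 and 3 both lay above.

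The summed level of the metallothionein members was set by MT2A, which made up 81.2% to 84.3% of it in the knockdown and 86.2% to 89.3% in the control libraries. The sums were 112, 168 and 169 TPM in the knockdown libraries and 135, 129 and 137 TPM in the controls. Knockdown replicate 1 was the lowest of all libraries and the other 2 knockdown libraries were the highest. The means were 150 ± 32.4 TPM and 134 ± 4.03 TPM (SD, n = 3 each), a ratio of 1.12 that is smaller than the spread of the knockdown libraries.

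**Figure D2:**
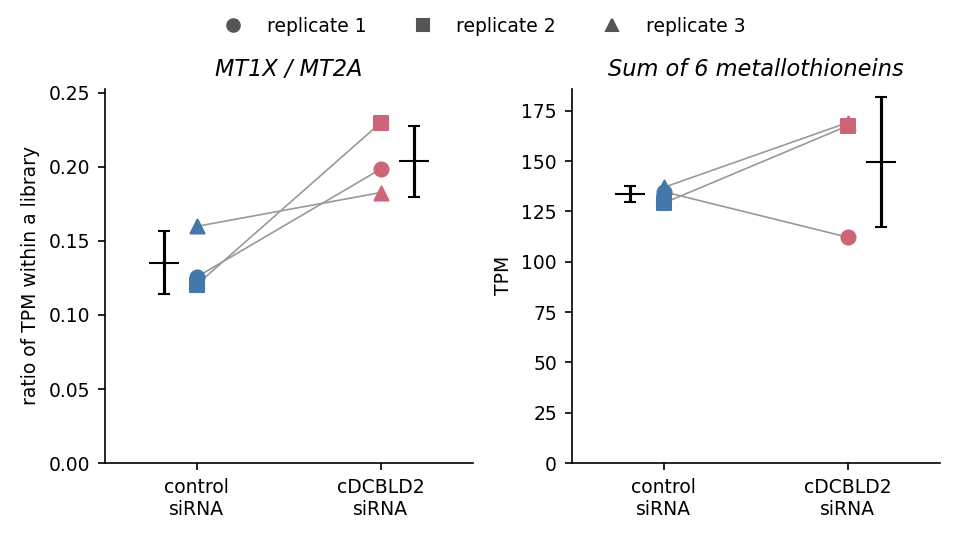
MT1X over MT2A (left, ratio of TPM values) and the summed TPM of the 6 metallothionein members (right), by library, with group means ± SD. The ratios, chosen after their values were seen, do not overlap between the groups (0.183 to 0.230 against 0.120 to 0.160). The sum in knockdown replicate 1 (112 TPM) is the lowest of all 6.

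The other 4 metallothionein members were at or near 0. MT1G, the isoform tied to sorafenib resistance, and MT1M were listed at 0 in all 6 libraries. MT1E reached 0.193 TPM in knockdown replicate 1 and 0.613 TPM in knockdown replicate 3, which corresponds to 1 and 4 reads, and at 0 in the other libraries. MT1F was above 0 only in knockdown replicate 2, at 0.227 TPM. These isoforms therefore offered no fold change, and no direction was read from them.

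The depth set how firmly these levels are known. The level that 3 reads would give, which a count of 0 still allows, was 0.774 to 1.08 TPM for MT1G over the 6 libraries, 0.591 to 0.826 TPM for MT1M, 0.567 to 0.793 TPM for MT1F and 0.446 to 0.623 TPM for MT1E. The 1 read of MT1E in knockdown replicate 1 falls under its level, so these figures are bounds for a library at 0 and not limits of detection. Of 19439 protein-coding genes 13.6% were also at 0 in every library, while 0 of 15 housekeeping genes and 1 of 77 ribosomal protein genes were at 0 in any library. How reads matching several genes were assigned is not given in the sources used here, and 14.3% of the 50-base windows of the MT1G transcript and 10.6% of those of MT1E recur in transcripts of other genes. For MT1X, 55.8% of these windows are shared with AC026461.1, so reads could be split between that pair. Transcripts of MT1X also share such windows with those of MT2A, MT1F, MT1G and MT1M, so reads could be split there too.

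The remaining metallothionein genes of the table were also low. Of 16 metallothionein genes and pseudogenes listed, 8 were at 0 in every library and 3 were above 0 in every library, namely MT2A, MT1X and the pseudogene MT1L. MT1L was at 2.03, 2.49 and 0.804 TPM in the knockdown and at 1.74, 1.17 and 3.22 TPM in the control libraries, with a log2 fold change of -0.13 and a limma adjusted p of 0.830. MT1A had at most 2 reads in any library. MT3, the brain isoform, and the pseudogene MT1DP were each above 0 in 1 control library. MT1B, MT1H, MT1HL1, MT4, MT1IP and MT1JP were listed at 0 throughout. MT1X and MT2A together made up 97.5% to 98.8% of the family's summed TPM.

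**Figure D3:**
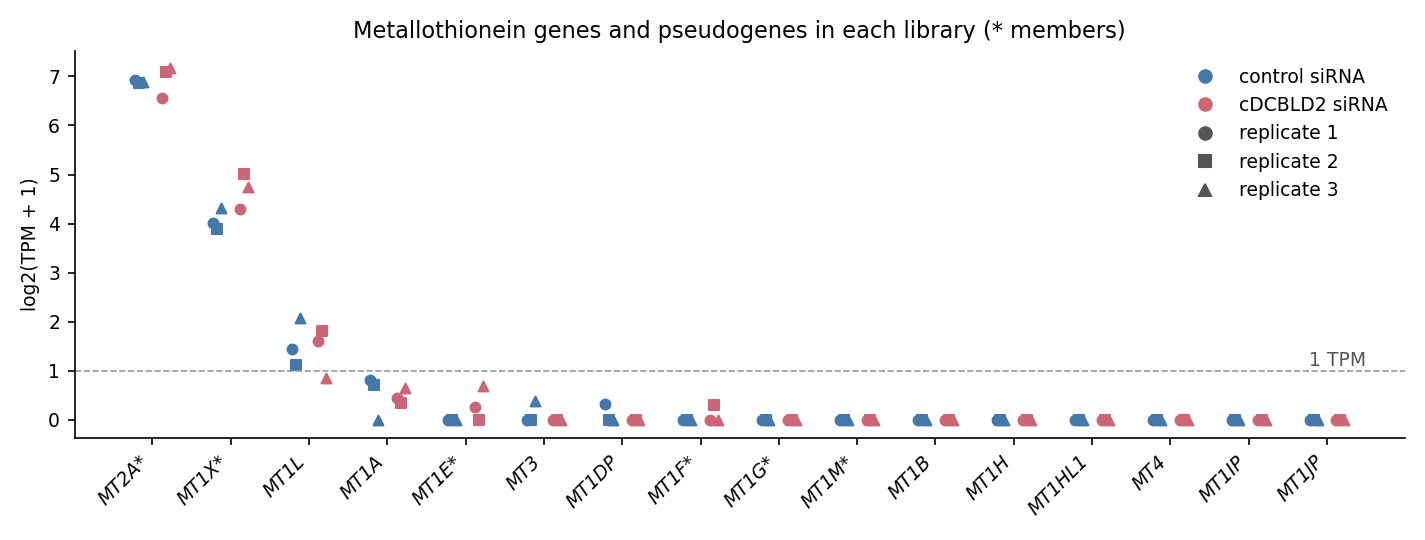
TPM of each metallothionein gene in the 6 libraries, as log2(TPM + 1) on the y axis, with blue for control and red for knockdown libraries, shapes for replicates and a dashed line at 1 TPM. MT2A (93.5 to 142 TPM) and MT1X (13.9 to 31.3 TPM) stand apart, and MT1G and MT1M sit at 0.

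MTF1, the zinc sensor that drives these promoters, was at 5.61, 4.28 and 3.68 TPM in the knockdown libraries and at 4.91, 4.51 and 4.94 TPM in the controls. Knockdown replicate 1 was the highest of the 6 libraries and knockdown replicate 3 the lowest. The means were 4.52 ± 0.985 and 4.79 ± 0.243 TPM (SD, n = 3 each). The log2 fold change was -0.08 (SE 0.15) with a limma adjusted p of 0.767, and the exact permutation test, two-sided, gave p = 0.7. The pair log2 ratios of 0.19, -0.07 and -0.42 had no common direction.

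MTF1 was the only one of the 8 genes whose transcript held a match to the seed of miR-345-5p, a microRNA that the study examined alongside cDCBLD2. The mature sequence is printed with its seed, bases 2 to 8, in capitals. The stretch of the MTF1 transcript (GENCODE 29) is printed with the match in capitals, in the coding sequence at transcript base 1345, chr1:37822684.
hsa-miR-345-5p: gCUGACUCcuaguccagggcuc
MTF1: gtgatgcaGAGTCAGtcagtga
Of 12956 tested genes with a transcript, 26.3% held the same 7 letters somewhere. This share counts a match in any coding transcript of a gene, or in any transcript of a gene without coding ones. The 8 genes were searched in a single transcript each, so the share covers more sequence per gene. The match is a description of the sequence and not a site shown to be bound.

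SLC30A1, which carries zinc out of the cell and is itself an MTF1 target, was at 17.54, 11.00 and 14.64 TPM in the knockdown libraries and at 16.98, 15.00 and 17.14 TPM in the controls. Knockdown replicate 1 lay above every control and the other 2 knockdown libraries below every control, each on the opposite side from MT2A. The means were 14.4 ± 3.28 and 16.4 ± 1.19 TPM (SD, n = 3 each). The log2 fold change was -0.20 (SE 0.17) with a limma adjusted p of 0.490, and the exact permutation test, two-sided, gave p = 0.6. The pair log2 ratios were 0.05, -0.45 and -0.23. With the GC trend removed the log2 fold change was 0.13, so its direction did not hold across settings.

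Across genes, log2 fold changes moved with the GC content of the transcript, and the members span a wide range of it. The 441 tested genes within 1 percentage point of SLC30A1 (38.0% GC) had a median log2 fold change of -0.45, below its -0.20. The 1058 such genes around MTF1 (46.7% GC) had a median of -0.21, below its -0.08. Around MT2A (59.4% GC) 878 genes had a median of 0.08, near its 0.05, and around MT1X (52.6% GC) 882 genes had a median of -0.03 against its 0.62. MT1X was thus the member farthest from genes of like GC content, and with the GC trend removed its log2 fold change was 0.54, with a limma adjusted p of 0.126 without and 0.0440 with the block. The part of GC content in the members' values was not tested.

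**Figure D4:**
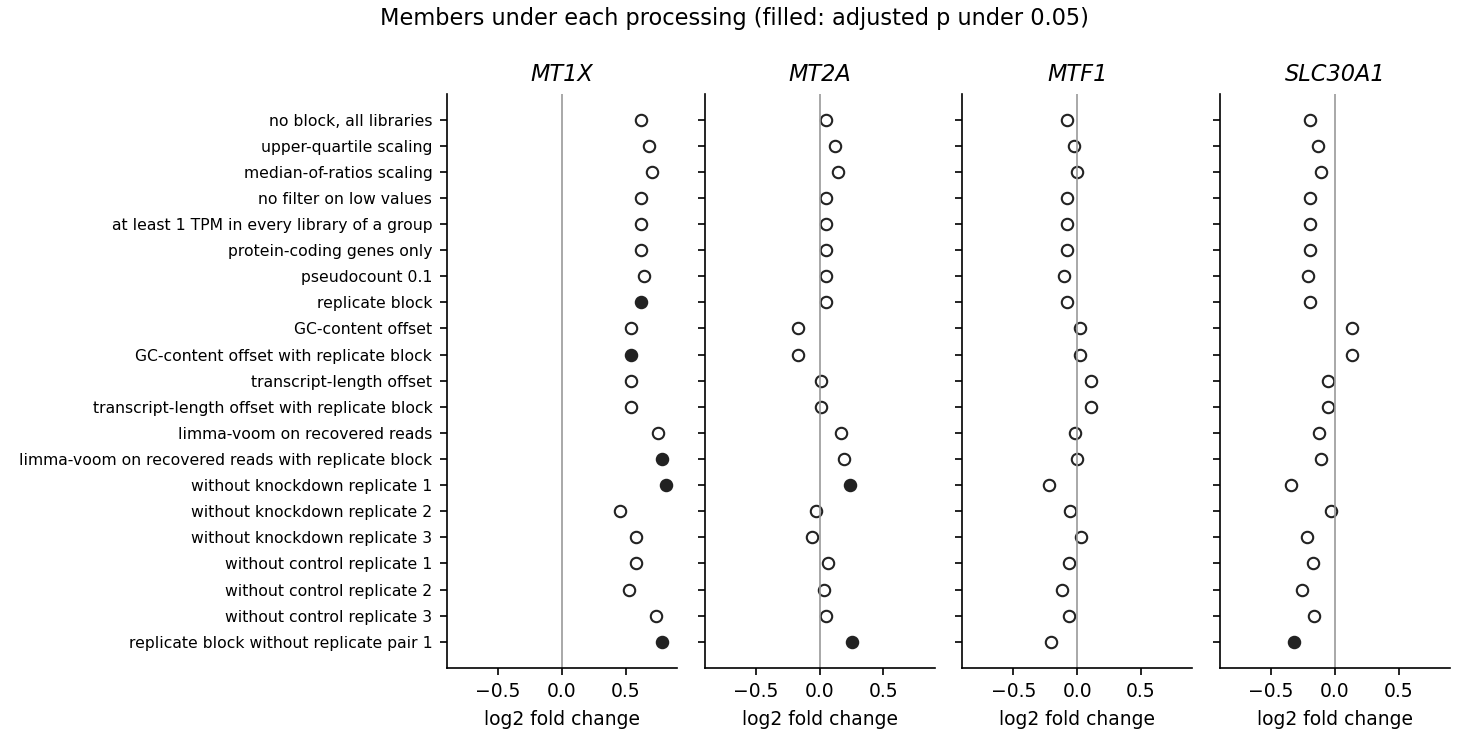
Log2 fold change (knockdown minus control) of the 4 tested members under each processing setting, with filled points where the limma adjusted p was under 0.05. MT1X stays between 0.45 and 0.81, whereas MT2A (-0.17 to 0.25), MTF1 (-0.22 to 0.11) and SLC30A1 (-0.34 to 0.13) fall on both sides of 0.

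The order of levels among the 4 expressed members was stable apart from 1 pair. MT2A was above the other 3 and MTF1 below the other 3 in 6 of 6 libraries. MT1X was above SLC30A1 in 4 of 6 libraries, so that pair could not be ordered beyond its spread.

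Most of the other genes of the SLC30 transporter family move zinc out of the cytosol into organelles or out of the cell. Of the 9 other SLC30 genes, 4 were tested. Without the block 0 were called, and with it 3 were called lower and 0 higher, against 25% and 9.94% of all genes tested. Their median log2 fold change was -0.40 against -0.08 over all genes tested. However, SLC30A6, SLC30A7 and SLC30A9 were at 39.0%, 38.1% and 39.1% GC and SLC30A5 at 44.4%. The 441 tested genes around 38.0% GC had a median of -0.45, so the list median was no lower than that of genes of such GC content. The part of GC content in this list was not tested. SLC30A6, which pairs with SLC30A5 to load zinc into the early secretory pathway, was at 8.56, 5.73 and 5.71 TPM in the knockdown and at 12.0, 9.93 and 9.25 TPM in the control libraries. All knockdown libraries were below all controls. Its log2 fold change was -0.58 with a limma adjusted p of 0.114 without and 0.00892 with the block, and with the GC trend removed it was -0.26, with 0.0180 in the blocked limma fit. SLC30A5 (-0.30) and the mitochondrial transporter SLC30A9 (-0.50) had limma adjusted p of 0.0219 and 0.0378 with the block, and 0.177 and 0.188 once the GC trend was also removed. SLC30A10 was listed at 0 in all libraries.

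The SLC39 zinc importers, which bring zinc into the cytosol, were split in direction. Of 14 genes 11 were tested, 0 were called without the block, and with it 2 were called higher, 4 lower and 5 neither, against 9.94% higher and 25% lower over all genes tested. The median log2 fold change was 0.04. SLC39A10, a plasma membrane importer, was at 4.73, 2.65 and 3.29 TPM in the knockdown and at 7.25, 5.74 and 6.14 TPM in the control libraries. Its groups did not overlap, and its log2 fold change was -0.72 with a limma adjusted p of 0.0933 without and 0.00913 with the block. SLC39A6, which forms a complex with SLC39A10, had a log2 fold change of -0.43 and limma adjusted p of 0.157 and 0.0116. With the GC trend removed their log2 fold changes shrank to -0.45 and -0.23, with limma adjusted p of 0.0112 and 0.0373 in the blocked fit.

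SLC39A8 (-0.45) and SLC39A9 (-0.27) were called lower with the block, at limma adjusted p of 0.0259 and 0.0324. Once the GC trend was also removed, their limma adjusted p were 0.103 and 0.0966. SLC39A7, which releases zinc from the endoplasmic reticulum, had a log2 fold change of 0.20 and SLC39A1, a plasma membrane importer, one of 0.17, with limma adjusted p of 0.0179 and 0.0246 with the block. With the GC trend removed these were 0.05 and -0.04, so the sign of SLC39A1 turned. The median over all genes tested was then -0.12, and both genes lay above it. SLC39A2 and SLC39A12 were listed at 0 in all libraries.

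Copper, the other metal that metallothioneins bind, was covered by 10 genes, all tested. Without the block 0 were called, and with it 3 were called higher, 1 lower and 6 neither, against 9.94% higher and 25% lower over all genes tested. The median log2 fold change was -0.04. ATP7A, the ATPase that exports copper, was at 12.3, 7.29 and 8.38 TPM in the knockdown and at 15.9, 14.6 and 16.7 TPM in the control libraries, with no overlap. Its log2 fold change was -0.73 with a limma adjusted p of 0.0888 without and 0.0134 with the block, and with the GC trend removed it was -0.48, with 0.0200 in the blocked limma fit. SLC31A2, a low-affinity copper transporter, was at 8.70, 7.58 and 6.56 TPM in the knockdown and at 5.76, 6.22 and 4.35 TPM in the controls, again with no overlap. Its log2 fold change was 0.42 with a limma adjusted p of 0.162 without and 0.0245 with the block. With the GC trend removed it was 0.48, with 0.0148 in the blocked limma fit. SCO2 (0.29) and ATOX1 (0.18), copper chaperones of cytochrome c oxidase assembly and of the copper ATPases, were called higher with the block, and with the GC trend also removed their limma adjusted p were 0.820 and 0.244.

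**Figure D5:**
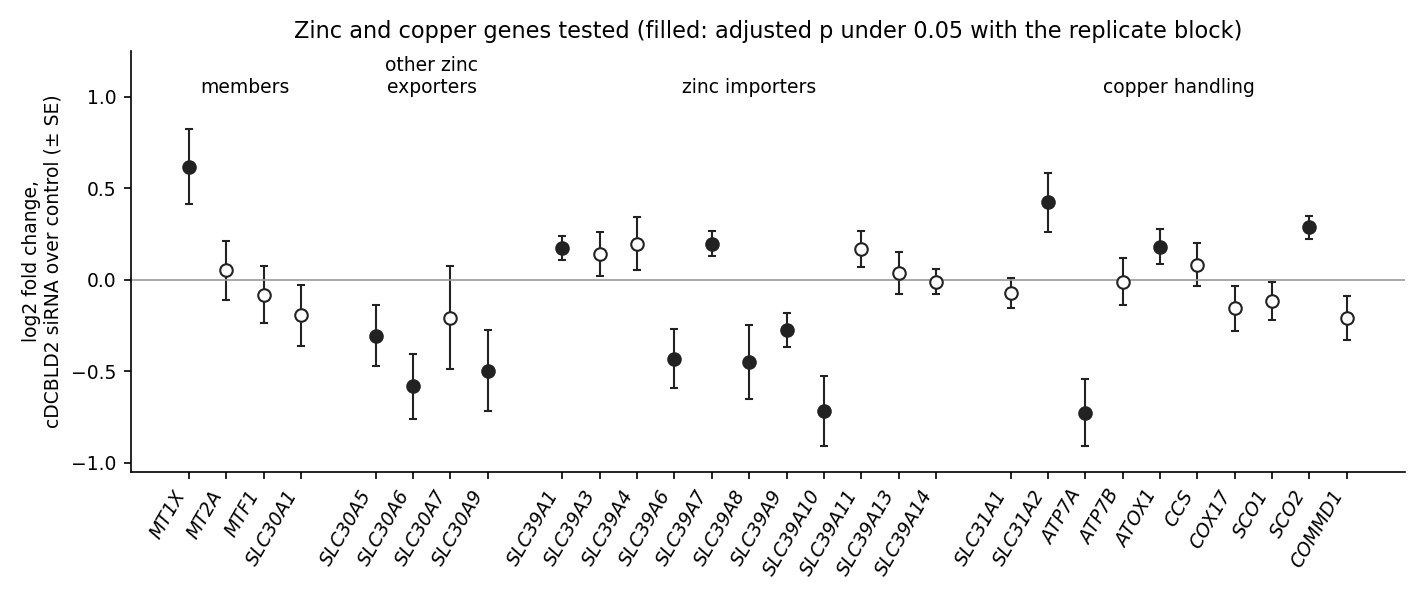
Log2 fold change (knockdown minus control) of each tested member and of the tested zinc exporters, zinc importers and copper genes, 1 point per gene with its SE, grouped by list and filled where the limma adjusted p with the block was under 0.05. The largest decreases are ATP7A (-0.73), SLC39A10 (-0.72) and SLC30A6 (-0.58), and MT1X (0.62) is the largest increase.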

How the data were processed

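Poly(A) RNA of 6 libraries was sequenced. Per the labels, libraries were made with the NEBNext Ultra RNA kit from 3 samples a group. The submitters' processing notes name fastp 0.20.1, HISAT2 2.1.0, StringTie 2.0 and hg38, and the authors deposited 1 gene table in TPM. The annotation, strand setting, read length and treatment of multiply mapped reads are not given in the sources used here. Members and gene lists were chosen with earlier results of these data known.

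From the deposited TPM values, the 13980 genes whose mean reached 1 TPM were tested as log2(TPM + 1) with limma 3.58.1 in R 4.3.3 (trended variance, Benjamini-Hochberg adjustment, threshold 0.05), as unpaired groups. The replicate numbers were then checked. Deviations of same-numbered libraries from their group means correlated at 0.56, 0.343 and 0.362 across genes, so the numbers were taken to pair the libraries and a fit with the number as a block is given where it changes a call. Single values were tested by exact permutation of libraries between the groups, ignoring the pairs, with Python 3.11.15 and scipy 1.17.1.

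Reads were recovered from TPM as the smallest whole numbers in the ratios of the libraries. For 100% of 17285 genes above 0 in all libraries the values came out whole within 0.002 reads plus rounding error, against 0% of 500 genes with the library factors moved at random by up to 10%. The totals are lower bounds. Limma-voom on these reads was an alternative, as were other scalings, filters, a pseudocount of 0.1, offsets for GC content and length, and leaving out each library. GC content was known for 92.7% of tested genes. Only the unblocked limma fit was tested on simulated data first, which held no pairs and larger changes than the members showed. The blocked, offset and voom fits were not tested in this way. Named genes were the 8 members, list genes called with or without the block (at most 6 a list, by size) or listed at 0, DCBLD2, and the genes with the nearest profiles.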

Additional observations from a re-analysis of the deposited data

How the results depend on the processing

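Across 20 alternatives, MT1X kept its direction and was called in 5, MT2A was called in 2, SLC30A1 in 1 and MTF1 in 0, and 0 members passed a log2 fold change of 1 as well in any. The number of members called higher was 1 with the replicate block, 1 with the GC-content offset and block, 1 with limma-voom and block, 0 with the length offset and block (MT1X, limma adjusted p 0.0524), 0 to 2 without single libraries (2 without knockdown replicate 1) and 2 with the block and pair 1 left out, a setting added once the data had been seen, which also called 1 lower (SLC30A1, -0.315). List genes called higher numbered 5 with the replicate block, 1 with GC offset and block, 4 with length offset and block, 8 with limma-voom and block, 0 to 2 without single libraries and 4 with the block and pair 1 left out. Those called lower numbered 8, 5, 7, 7, 0 to 6 and 7 under the same settings. MT1X was 0.616 with the replicate block, 0.537 with GC offset and block, 0.781 with limma-voom and block and 0.781 with the block and pair 1 left out, and 0.453 to 0.814 without single libraries. MT2A was -0.169 with the GC offset, with or without the block, 0.254 with the block and pair 1 left out, and -0.0605 to 0.241 without single libraries. MTF1 was 0.0259 with the GC offset, 0.111 with the length offset and -0.217 to 0.0308 without single libraries. SLC30A1 was 0.132 with the GC offset and -0.341 to -0.0269 without single libraries. SLC39A1 was -0.0409 with the GC offset. The cause of these shifts was not tested. Median-of-ratios scaling moved the median of all genes from -0.08 to 0.00122, and the GC offset moved it to -0.12. The summed metallothionein TPM ratio moved by less than the SD of the knockdown libraries, taken relative to the control mean, in every alternative run. That SD was 32.4 TPM, against 4.03 TPM in the controls, so this is a wide yardstick. The ratio was 1.12 with all libraries and 1.26 without knockdown replicate 1. Depth limits MT1E, MT1F, MT1G and MT1M.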

Other observations

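The genes whose centred log2(TPM + 1) over the 6 libraries lay nearest to the mean of MT1X and MT2A were LOC105375489 (root mean square distance 0.0696), PRRG2 (0.0708), DIPK1B (0.0725), C2CD4C (0.0735) and RPS2P32 (0.0750), and 17 genes lay within 0.1. PRRG2 was at 1.56, 3.25 and 3.23 TPM in the knockdown and at 1.96, 1.87 and 2.18 TPM in the control libraries, with knockdown replicate 1 lowest, as in MT2A. Nearest to MTF1 were YTHDF2 (0.0310), a reader of methylated RNA, WDR61 (0.0417) and ATP5MK (0.0423), with 491 genes within 0.1. Nearest to SLC30A1 were SLC2A13 (0.0399), a proton-coupled inositol transporter, ZNF860 (0.0405) and VCPIP1 (0.0444), with 121 genes within 0.1. These distances describe 6 libraries that share cells and treatment and carry no test.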
